A study of Homo sapiens with 6 samples.

Results

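Extracellular adenosine is made and removed by a short chain of cell-surface proteins, and 10 genes of that chain were followed here in DU-145 cells in which the mucin MUC1 had been knocked down. The genes were those whose symbol in the count table was NT5E, ENTPD1, ENTPD2, ENTPD3, ADA, DPP4, SLC29A1, ADORA1, ADORA2A or ADORA2B, and all 10 were found among the 60662 genes of the table. DU-145 is a human prostate cancer cell line. The DOX-positive group was 3 cultures that carried a tetracycline-inducible hairpin against MUC1 and received doxycycline for 7 days. The DOX-negative group was 3 cultures of the same stable line that received vehicle for 7 days. Both groups were also given interferon-gamma at 10 ng/ml for 24 hours, so neither shows unstimulated cells. No culture with doxycycline and a control hairpin was analysed here, so the effects of the drug and of the loss of MUC1 cannot be told apart. The labels describe triplicate cultures of 1 line, so p-values measure the spread between those cultures.

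ATP released from cells is cut to AMP at the cell surface by ectonucleoside triphosphate diphosphohydrolases (the ENTPD genes, of which ENTPD1 encodes CD39). NT5E encodes CD73, which removes the last phosphate of AMP and so releases adenosine. Adenosine then acts on G protein-coupled receptors, of which those encoded by ADORA2A and ADORA2B raise cyclic AMP and that encoded by ADORA1 lowers it. It is cleared by the transporter ENT1 (SLC29A1), which carries it into the cell, and by adenosine deaminase (ADA), which can be held at the surface by DPP4 (CD26). In tumours this pathway is known for dampening T cells and natural killer cells, mostly through ADORA2A on those cells.

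The libraries held 105358357 to 150921436 reads in DOX-positive cells and 87739734 to 138844816 reads in DOX-negative cells, and levels are given as CPM, reads relative to the library total after TMM scaling. MUC1, the target of the hairpin, was at 1.53, 1.31 and 1.32 CPM in the DOX-positive libraries and 20.4, 21.8 and 22.2 CPM in the DOX-negative libraries. Its groups did not overlap, and it fell 15.5-fold (log2 fold change -3.96, SE 0.08, edgeR adjusted p = 5.12e-16), the direction that the labels name. All 5 epithelial markers (EPCAM, KRT8, KRT18, KRT19 and CDH1) were expressed, and their summed level was 2261 to 2350 CPM in DOX-positive and 813.1 to 863.6 CPM in DOX-negative cells. The prostate luminal markers KLK3, KLK2 and FOLH1 had at most 3 reads in every library. Summed over 6 leukocyte markers the level was 0.360 to 0.464 CPM in DOX-positive and 1.21 to 1.34 CPM in DOX-negative cells. CD3E and LYZ had 3 reads or fewer in every library. Most of the sum was CD14, at 0.286 CPM in DOX-positive and 1.02 CPM in DOX-negative cells. CD14 and ITGAM passed as lower (edgeR adjusted p = 1.12e-06 and 0.00331). The 4 endothelial markers summed to 0.417 to 0.498 CPM in DOX-positive and 0.765 to 0.859 CPM in DOX-negative cells. The 6 fibroblast markers summed to 4.66 to 4.998 CPM in DOX-positive and 6.27 to 7.38 CPM in DOX-negative cells. LUM had 3 reads or fewer throughout. Most of that sum was COL1A1, at 4.67 CPM in DOX-positive and 6.48 CPM in DOX-negative cells. COL1A1 passed as lower (edgeR adjusted p = 0.000181). The part of these markers in the results was not tested.

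The promoters of NT5E and of the receptors ADORA2B and ADORA1 are shown because NT5E makes adenosine and these receptors, which moved in opposite directions, receive it. ENTPD3 and ENTPD1, which also changed, are described by their values only. They are RefSeq promoters on GRCh38.p14, from 250 bases before to 50 after a gene's start, for NT5E at chr6:85449833-85450132, for ADORA2B at chr17:15944880-15945179 and for ADORA1 at chr1:203127476-203127775, each on the plus strand. Of the 10 genes, 9 had an entry in that table, and the RefSeq starts of these 3 lie inside the gene spans given further on, which are from GENCODE 29. The ADORA1 window, which begins at base 203127476, lies far from the start of that gene's span at 203090654. Sequence at that upstream end of the span is not shown. Capitals mark the letters TGACG (the core shared with cyclic AMP response elements), ACGTG or GCGTG (the core of hypoxia-inducible factor sites) and GGGCGG (the GC box), searched on both strands.
NT5E: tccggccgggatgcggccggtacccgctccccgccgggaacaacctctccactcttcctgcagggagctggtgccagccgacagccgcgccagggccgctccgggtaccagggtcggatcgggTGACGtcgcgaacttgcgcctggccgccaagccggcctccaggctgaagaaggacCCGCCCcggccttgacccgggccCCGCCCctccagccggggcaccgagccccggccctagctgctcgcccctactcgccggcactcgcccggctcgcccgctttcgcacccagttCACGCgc
ADORA2B: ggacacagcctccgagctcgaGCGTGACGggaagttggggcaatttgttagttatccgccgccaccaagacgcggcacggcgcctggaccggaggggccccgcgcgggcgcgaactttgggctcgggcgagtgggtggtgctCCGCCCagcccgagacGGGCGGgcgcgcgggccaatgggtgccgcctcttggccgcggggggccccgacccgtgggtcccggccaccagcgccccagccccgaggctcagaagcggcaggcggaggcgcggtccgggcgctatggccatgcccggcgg
ADORA1: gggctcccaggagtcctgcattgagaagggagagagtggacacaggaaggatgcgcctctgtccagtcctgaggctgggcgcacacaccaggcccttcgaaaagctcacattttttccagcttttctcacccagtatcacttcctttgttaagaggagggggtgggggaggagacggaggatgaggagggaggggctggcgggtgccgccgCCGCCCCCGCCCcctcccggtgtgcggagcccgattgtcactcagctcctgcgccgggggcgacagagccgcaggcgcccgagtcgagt
The NT5E sequence held 1 TGACG, 1 hypoxia-type core and 2 GC boxes. The ADORA2B sequence held 1, 1 and 2 of them, with TGACG and the hypoxia-type core overlapping, and the ADORA1 sequence held only 2 GC boxes. Among 35116 RefSeq promoters of the same length, 24.6% held TGACG, 48.4% a hypoxia-type core and 45% a GC box, so these letters are common. The interferon-type letters TTCNNNGAA and the core of the interferon-stimulated response element, present in 7.66% and 3.57% of all promoters, were not in any of the 3 windows. A match describes the letters only and does not show that a factor binds.

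Of the 10 genes, 9 had enough reads to be tested, and 7 of those 9 passed an edgeR adjusted p under 0.05, 5 higher and 2 lower in DOX-positive cells. Across all 24695 genes tested, 56.5% passed, 27.6% higher and 28.9% lower, so a call by itself sets no gene apart here. Scaling by library size alone shifted the median log2 fold change of all genes by -0.14 and called 4689 genes higher and 9579 lower, where TMM called 6825 higher and 7132 lower. Under that scaling 3 of the adenosine genes were higher and 3 lower. With TMM the groups did not overlap for 7 of the 9, against 62.4% of all genes. The 9 genes are taken in turn by role.

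**Figure D1:**
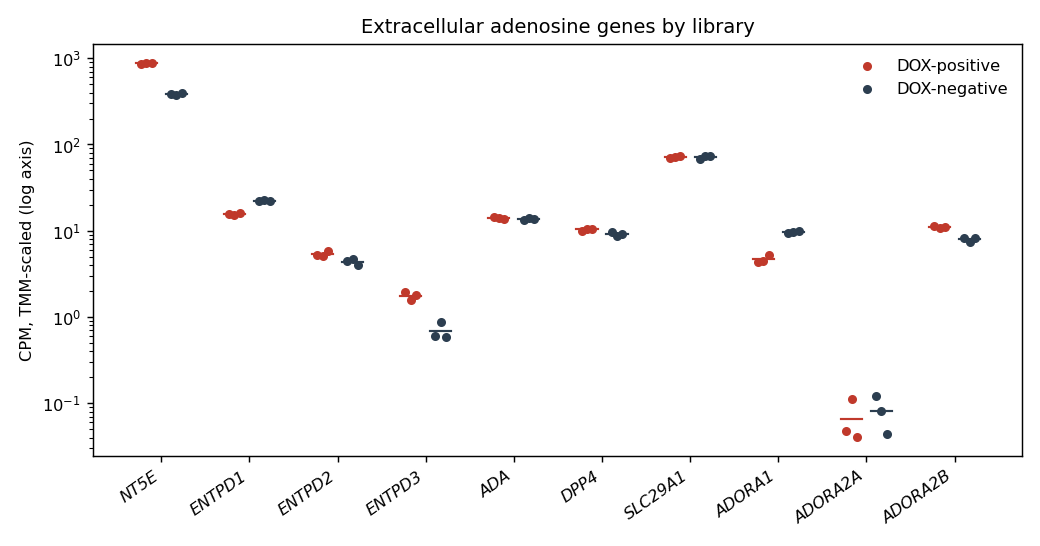
CPM of the 10 genes in each of the 6 libraries on a log axis, DOX-positive in red on the left and DOX-negative in dark blue on the right of each gene, with a bar at the mean of 3. NT5E lies far above the other genes, and the groups stand apart for 7 genes and overlap for ADA, SLC29A1 and ADORA2A.

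NT5E (ENSG00000135318.12, chromosome 6, 85449584 to 85495791 on the plus strand, GRCh38), the enzyme that releases adenosine, was the most abundant of the 10 in every library and rose in DOX-positive cells. It had 90707, 127451 and 87919 reads in the DOX-positive libraries and 38350, 55717 and 36545 reads in the DOX-negative libraries. Scaled, these were 860.3, 882.2 and 887.3 CPM in DOX-positive and 385.8, 379.7 and 399.3 CPM in DOX-negative cells. The lowest DOX-positive library was thus above the highest DOX-negative one by far more than the spread within either group. The means were 876.6 ± 14.3 CPM in DOX-positive and 388.3 ± 10.0 CPM in DOX-negative cells (SD, n = 3 each), a fitted log2 fold change of 1.17 (SE 0.03, 95% interval 1.11 to 1.236, edgeR adjusted p = 7.88e-15). Of all genes tested, 2.65% had a log2 fold change at least as high. These are whole-culture RNA values, in which more cells with a transcript and more of it per cell cannot be told apart.

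The ENTPD genes, which make the AMP that NT5E acts on, moved in different directions. ENTPD1 (chromosome 10, 95711779 to 95869695, plus strand) read 15.5, 15.4 and 15.97 CPM in DOX-positive cells and 22.4, 22.5 and 21.9 CPM in DOX-negative cells. It fell by 0.51 on the log2 scale (SE 0.04, edgeR adjusted p = 3.21e-08), with no overlap of the groups. ENTPD2, whose protein prefers ATP to ADP, read 5.22, 5.10 and 5.74 CPM in DOX-positive and 4.47, 4.66 and 4.03 CPM in DOX-negative cells. Its groups lay close but did not overlap, and it rose by 0.28 on the log2 scale (SE 0.09, edgeR adjusted p = 0.0143). It no longer passed with library size alone (log2 fold change 0.14, adjusted p = 0.21) and without DOX-positive replicate 3 (0.24, adjusted p = 0.0671), and adjusted p ran from 0.00482 to 0.21 across alternatives. ENTPD3, which is known from epithelia and neurons, was the scarcest of these ENTPD genes, at 1.94, 1.59 and 1.78 CPM in DOX-positive and 0.604, 0.879 and 0.579 CPM in DOX-negative cells. It had 176 to 230 reads in DOX-positive and 53 to 129 reads in DOX-negative libraries and rose 2.52-fold (log2 fold change 1.33, SE 0.18, edgeR adjusted p = 1.03e-05). The 95% interval of that log2 fold change was 0.94 to 1.73.

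Levels of different genes were compared per length, as TPM computed with the deposited gene lengths. NT5E was at 620.2 ± 18.7 TPM in DOX-positive and 319.3 ± 17.9 TPM in DOX-negative cells (SD, n = 3 each). In DOX-positive cells ENTPD2 was at 6.50 ± 0.418, ENTPD1 at 3.49 ± 0.0839 and ENTPD3 at 1.58 ± 0.129 TPM. In DOX-negative cells ENTPD2 was at 6.19 ± 0.412, ENTPD1 at 5.77 ± 0.222 and ENTPD3 at 0.710 ± 0.144 TPM. NT5E transcripts per ENTPD1 transcript came to 176, 181 and 176 in DOX-positive libraries and 54.6, 53.5 and 57.8 in DOX-negative libraries. Of the summed TPM of the ENTPD genes and NT5E, NT5E made up 98.2% ± 0.0813 in DOX-positive and 96.2% ± 0.289 in DOX-negative cells. Among the ENTPD genes alone, ENTPD1 made up 30.2% ± 0.877 in DOX-positive and 45.6% ± 1.84 in DOX-negative cells, and ENTPD3 made up 13.7% ± 1.17 in DOX-positive and 5.60% ± 1.09 in DOX-negative cells. In DOX-negative cells the TPM ranges of ENTPD2 (5.73 to 6.53) and ENTPD1 (5.58 to 6.01) overlapped, although ENTPD2 was the higher in each library. ENTPD1 has the longest deposited length of the 10 genes, 14344 bases, and ranked 3 by CPM but 8 by TPM in both groups, so its place depends on that length. TPM also weights libraries differently from TMM, and differences between the groups are taken from CPM throughout. By TPM, SLC29A1 was lower without overlap, at 51.41 to 55.45 in DOX-positive and 61.33 to 64.19 in DOX-negative cells. So was ADA, at 15.66 to 16.36 TPM in DOX-positive and 17.98 to 18.45 TPM in DOX-negative cells. DPP4 averaged 7.15 TPM in DOX-positive and 7.26 TPM in DOX-negative cells, and its groups and those of ENTPD2 overlapped. NT5E, ENTPD3 and ADORA2B stayed higher and ENTPD1 and ADORA1 lower, without overlap.

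**Figure D2:**
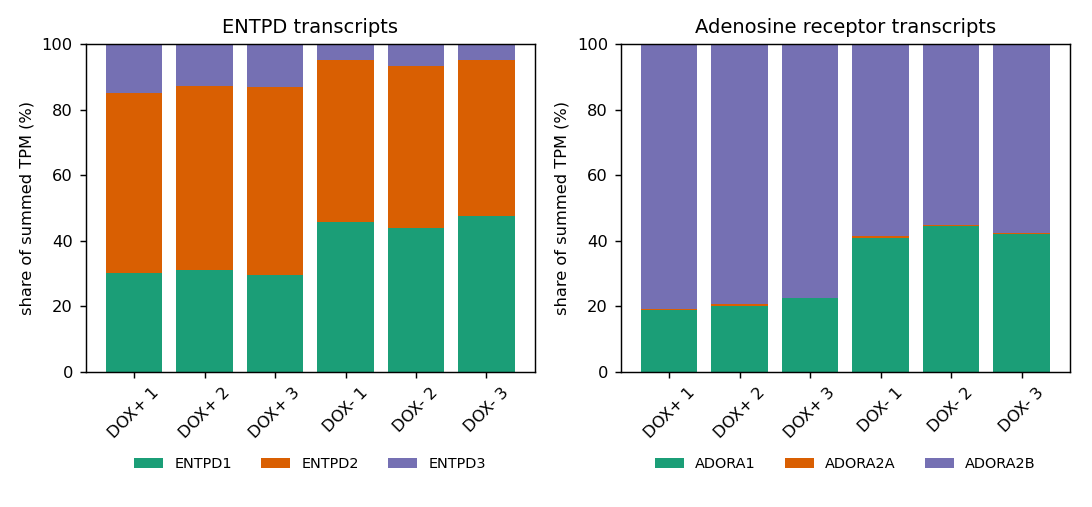
Share (%) of summed TPM in each library, DOX-positive libraries left and DOX-negative right, for the ENTPD genes in one panel and the adenosine receptors in the other. ENTPD1 takes 29.4% to 31.2% of ENTPD transcripts in DOX-positive libraries and 43.8% to 47.4% in DOX-negative ones, and ADORA2B takes 77.5% to 80.9% of receptor transcripts in DOX-positive and 55.2% to 58.6% in DOX-negative libraries.

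Among the receptors, ADORA1 was lower and ADORA2B higher in DOX-positive cells. ADORA1 (chromosome 1, 203090654 to 203167405, plus strand), which couples to inhibitory G proteins, read 4.34, 4.50 and 5.27 CPM in DOX-positive and 9.44, 9.68 and 9.92 CPM in DOX-negative cells. It fell 2.06-fold (log2 fold change -1.04, SE 0.08, 95% interval -1.21 to -0.87, edgeR adjusted p = 9.05e-09). ADORA2B (chromosome 17, 15944917 to 15975746, plus strand), the low-affinity receptor that raises cyclic AMP, read 11.3, 10.8 and 11.1 CPM in DOX-positive and 8.25, 7.31 and 8.26 CPM in DOX-negative cells. It rose 1.40-fold (log2 fold change 0.48, SE 0.07, 95% interval 0.34 to 0.62, edgeR adjusted p = 8.41e-06). Neither gene's groups overlapped. Per length, ADORA2B was at 13.9 ± 0.0884 and ADORA1 at 3.60 ± 0.393 TPM in DOX-positive cells, and at 11.6 ± 1.23 and 8.60 ± 0.335 TPM in DOX-negative cells. ADORA2B transcripts per ADORA1 transcript were at least 3.47 in every DOX-positive and at most 1.44 in every DOX-negative library.

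ADORA2A, the receptor best known from lymphocytes, had 5, 16 and 4 reads in DOX-positive and 12, 12 and 4 reads in DOX-negative libraries and did not pass the filter on low counts. Its groups overlapped, and with no filter its log2 fold change was -0.24 (edgeR adjusted p = 0.815). A count of 0 allows 3 reads, which is 0.0199 to 0.0285 CPM in a DOX-positive and 0.0216 to 0.0342 CPM in a DOX-negative library. ADORA2A averaged 0.0662 ± 0.0388 CPM in DOX-positive and 0.0821 ± 0.0385 CPM in DOX-negative cells. No difference in ADORA2A was detected at this depth, and how large a difference could have been missed was not tested.

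Of the genes that clear adenosine, ADA and SLC29A1 did not pass the test. ADA read 14.3, 14.1 and 13.7 CPM in DOX-positive and 13.4, 14.2 and 13.8 CPM in DOX-negative cells, with a log2 fold change of 0.03 (95% interval -0.08 to 0.13, edgeR adjusted p = 0.698, 0.0606 to 0.834 across alternatives). SLC29A1, second only to NT5E in level, read 70.0, 71.5 and 74.3 CPM in DOX-positive and 68.7, 73.9 and 73.5 CPM in DOX-negative cells. Its log2 fold change was -0.003 (95% interval -0.08 to 0.07, edgeR adjusted p = 0.959), and with library size alone it was -0.15 (adjusted p = 0.00162, 0.00162 to 0.961 across alternatives). Both genes' groups overlapped with TMM. DPP4, the surface anchor of ADA and itself a peptidase, read 10.1, 10.6 and 10.6 CPM in DOX-positive and 9.55, 8.59 and 9.15 CPM in DOX-negative cells. Its groups did not overlap, and it rose by 0.20 on the log2 scale (SE 0.06, edgeR adjusted p = 0.0128). It no longer passed with upper-quartile scaling (0.14, adjusted p = 0.0619), with library size alone (0.06, adjusted p = 0.461) and without DOX-negative replicate 2 (0.155, adjusted p = 0.0718), and adjusted p ran from 0.00307 to 0.461 across alternatives. NT5E transcripts per ADA transcript were 37.2, 38.7 and 40.1 in DOX-positive and 17.8, 16.6 and 17.9 in DOX-negative libraries, and per SLC29A1 transcript 11.6, 11.7 and 11.3 in DOX-positive and 5.33, 4.87 and 5.15 in DOX-negative libraries.

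**Figure D3:**
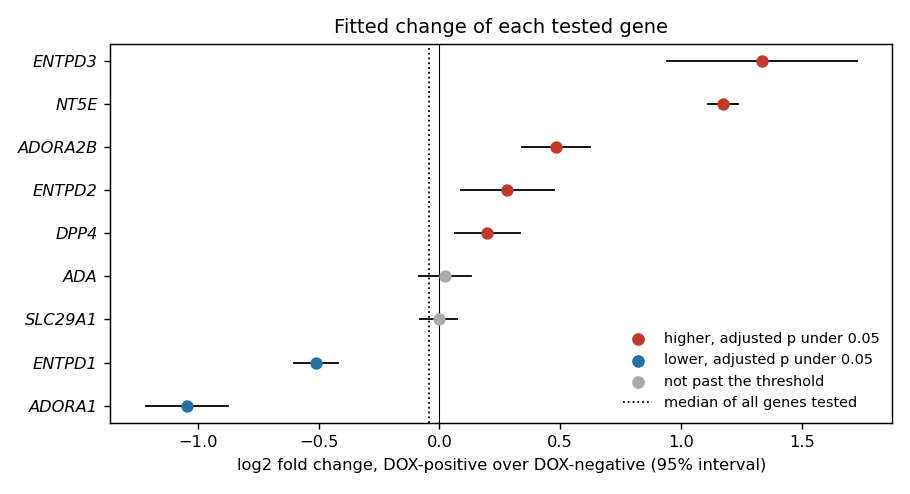
Fitted log2 fold change of the 9 tested genes, DOX-positive over DOX-negative, with 95% intervals; red points passed as higher, blue as lower and grey did not pass an edgeR adjusted p under 0.05, and the dotted line is the median of all 24695 genes (-0.04). ENTPD3 (1.33) and NT5E (1.17) lie highest, ADORA1 (-1.04) and ENTPD1 (-0.51) lowest.

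By TPM the order in DOX-positive cells was NT5E, SLC29A1, ADA, ADORA2B, DPP4, ENTPD2, ADORA1, ENTPD1, ENTPD3 and ADORA2A. In DOX-negative cells ADORA1 had rank 5, ahead of DPP4 and ENTPD2, and the other places kept their order. In DOX-positive cells DPP4 (6.79 to 7.38 TPM) and ENTPD2 (6.24 to 6.98 TPM) overlapped. The ranges of ADORA1 (3.27 to 4.03 TPM) and ENTPD1 (3.40 to 3.57 TPM) overlapped too.

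Some of the genes overlap others on the same stretch of chromosome, and whether the counting used strand is not given in the sources used here. ENTPD1 shares 116490 bases of its span with the antisense gene ENTPD1-AS1, which had 403 to 632 reads in DOX-positive and 449 to 798 reads in DOX-negative libraries and fell by 0.26 on the log2 scale (SE 0.09, edgeR adjusted p = 0.0201). ENTPD3 lies wholly within the span of ENTPD3-AS1, which had 227 to 337 reads in DOX-positive and 170 to 324 reads in DOX-negative libraries, more than ENTPD3 itself, and a log2 fold change of 0.25 (adjusted p = 0.121). The values of ENTPD1 and ENTPD3 are uncertain to that extent. ADA shares 4726 bases with PKIG on the opposite strand, which rose by 0.34 on the log2 scale (SE 0.05, edgeR adjusted p = 1.11e-05). ADORA2A overlaps ADORA2A-AS1, with 2 to 5 reads in DOX-positive and 12 to 20 reads in DOX-negative libraries, which fell (edgeR adjusted p = 0.00196), and the read-through gene SPECC1L-ADORA2A, with at most 2 reads in any library. DPP4, ADORA1 and ENTPD2 overlap antisense genes with at most 27 reads in any library, of which AC105940.2 at ADORA1 fell (edgeR adjusted p = 0.0245), and ENTPD1 overlaps 2 more genes with 0 reads throughout. No gene of the table with a GENCODE 29 position, which 58489 of the 60662 had, overlaps the spans of NT5E, SLC29A1 or ADORA2B. The nearest tested protein-coding genes beside NT5E were SNX14, 9705 bases after it, which rose by 0.29 on the log2 scale (SE 0.03, edgeR adjusted p = 9.07e-07), and CEP162, 1221949 bases before it, which fell by 0.46 (SE 0.07, adjusted p = 2.75e-05). SNX14 encodes a sorting nexin and CEP162 a centriole protein.

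Beyond the 10 genes, 10 wider lists covered the purine pathway, cyclic AMP signalling, hypoxia-inducible factors and their targets, and relatives of DPP4. They held 148 genes, of which 124 were tested. In DOX-positive cells 49 of these passed as higher and 47 as lower, and the median log2 fold change was 0.00, against -0.04 for all genes tested. Each list is given by its counts and its values, and nothing was tested over a list. Counts with TMM are to be read beside the 27.6% higher and 28.9% lower of all genes. Those with library size alone are to be read beside the 4689 higher and 9579 lower of all 24695 genes under that scaling.

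Other surface enzymes that handle nucleotides, listed with relatives that are not at the surface, were split, with 5 of 13 tested genes higher and 5 lower. CD38, which consumes NAD at the surface and can start another route to adenosine, was at 13.8, 13.3 and 14.9 CPM in DOX-positive and 55.1, 48.2 and 56.0 CPM in DOX-negative cells. It fell 3.79-fold (log2 fold change -1.92, SE 0.06, edgeR adjusted p = 5.02e-14). ENPP1, which can turn the product of CD38 into AMP and was named after its values were seen, was at 21.7 ± 0.422 CPM in DOX-positive and 34.6 ± 0.702 CPM in DOX-negative cells and fell 1.59-fold (edgeR adjusted p = 1.25e-10). ENPP5 rose 2.53-fold to 59.8 ± 2.94 CPM in DOX-positive cells, against 23.7 ± 0.996 CPM in DOX-negative cells, ENTPD7, an intracellular relative of CD39, rose 1.71-fold, and ENPP4 rose 1.37-fold. ENTPD4, a Golgi enzyme, had a log2 fold change of 0.00, and of -0.14 (adjusted p = 0.000544) with library size alone. The alkaline phosphatases ALPL, ALPP, ALPG and ALPI, which can also cut AMP, had too few reads to be tested. With library size alone 5 were higher and 7 lower.

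Inside the cell, 10 of 18 tested enzymes of AMP metabolism were higher and 4 lower, or 8 and 7 with library size alone. AMPD3, an AMP deaminase, was at 39.0 ± 1.58 CPM in DOX-positive and 16.6 ± 0.508 CPM in DOX-negative cells and rose 2.36-fold (edgeR adjusted p = 3.16e-13). The mitochondrial adenylate kinase AK3 rose 1.65-fold and the nucleotidase NT5C3B 1.49-fold.

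Of 11 tested genes that use or recycle adenosine and related purines, 5 were higher and 1 lower, or 5 and 5 with library size alone. PNP, the phosphorylase that splits the inosine made by ADA, was at 91.0 ± 1.12 CPM in DOX-positive and 52.5 ± 2.66 CPM in DOX-negative cells and rose 1.73-fold (edgeR adjusted p = 1.46e-11). AHCY, which releases adenosine from S-adenosylhomocysteine, rose 1.29-fold, its relative AHCYL2 1.43-fold and the salvage enzyme HPRT1 1.25-fold. AHCYL1 and the salvage enzyme APRT had log2 fold changes of -0.03 and -0.01, and of -0.17 and -0.15 with library size alone, where both passed as lower. Among the other nucleoside transporters 1 of 5 tested was higher and 2 lower. SLC29A2, the ENT2 transporter, rose 1.46-fold to 44.7 ± 0.455 CPM in DOX-positive cells, against 30.6 ± 1.005 CPM in DOX-negative cells. The lysosomal transporter SLC29A3 and the monoamine transporter SLC29A4 fell by 0.56 and 0.45 on the log2 scale.

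Of 12 tested genes linked to ATP release, 5 were higher and 3 lower, or 4 and 5 with library size alone. The volume-regulated channel subunits LRRC8A and LRRC8C passed with log2 fold changes of 0.24 and -0.28, and the pannexin PANX2 with 0.33. The channel PANX1 was at 62.5 ± 3.72 CPM in DOX-positive and 67.3 ± 2.71 CPM in DOX-negative cells, a log2 fold change of -0.11 (edgeR adjusted p = 0.0381) that was lost in 7 of 14 alternatives (adjusted p 3.96e-05 to 0.279). Of 11 tested receptors for ATP, ADP and UDP, 3 were higher and 6 lower, or 2 and 6 with library size alone. The list's median was -0.65 on the log2 scale, and scarce transcripts weigh in it. Among the lower genes P2RX2, P2RX6 and P2RY14, named after their values were seen, averaged 0.614, 1.34 and 0.461 CPM in DOX-negative cells. P2RY6, a UDP receptor, was at 7.27, 7.47 and 8.66 CPM in DOX-positive and 15.7, 15.4 and 16.3 CPM in DOX-negative cells and fell 2.03-fold (SE 0.07 on the log2 scale, edgeR adjusted p = 1.21e-09). The ATP-gated channel P2RX5 rose 2.25-fold, the ATP and UTP receptor P2RY2 rose 1.40-fold and the ADP receptor P2RY1 fell by 0.19 on the log2 scale. ADORA3, the remaining adenosine receptor, averaged 0.0216 CPM in DOX-positive and 0.0400 CPM in DOX-negative cells and was not tested.

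Of 29 tested genes of the cyclic AMP machinery, which carries an adenosine signal inside the cell, 17 were lower and 7 higher, or 20 and 6 with library size alone. Of all genes tested with TMM, 28.9% were lower and 27.6% higher. PDE4D, a phosphodiesterase that breaks down cyclic AMP, was at 242.8 ± 4.30 CPM in DOX-positive and 397.9 ± 20.4 CPM in DOX-negative cells and fell 1.64-fold (log2 fold change -0.71, SE 0.04, edgeR adjusted p = 6.78e-11). GNAS and GNAL, which encode the stimulatory G protein subunits, fell by 0.24 and 0.77 on the log2 scale, and the inhibitory subunit GNAI2 rose by 0.31. The inhibitory subunits GNAI3 and GNAI1, named after their values were seen, passed with log2 fold changes of 0.25 and -0.18. PRKAR2A, a regulatory subunit of protein kinase A, rose 1.57-fold, and PRKAR1A had a log2 fold change of -0.05, and of -0.19 with library size alone, where it passed as lower.

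Of 10 tested genes known to respond to cyclic AMP, 6 were lower and 3 higher, and the counts were 6 and 3 again with library size alone. The list's median was -0.63 on the log2 scale. The nuclear receptor NR4A1 read 20.6, 18.9 and 20.8 CPM in DOX-positive and 63.5, 65.5 and 55.9 CPM in DOX-negative cells and fell 3.08-fold (SE 0.05 on the log2 scale, edgeR adjusted p = 2.77e-13). NR4A2 fell 2.90-fold and FOS, at 22.4 ± 1.08 CPM in DOX-positive and 94.6 ± 3.17 CPM in DOX-negative cells, fell 4.23-fold. JUNB fell by 0.33 on the log2 scale, while the phosphatase gene DUSP1 rose by 0.32. These genes also answer to growth factors and stress.

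Hypoxia-inducible factors are known to raise NT5E and ADORA2B in epithelial cells, and their list was given for that reason. Of 12 tested factors and targets, 9 were higher and 1 lower, or 7 and 2 with library size alone. The list's median was 0.55 on the log2 scale. HIF1A was at 1324, 1369 and 1366 CPM in DOX-positive and 794.6, 764.7 and 829.8 CPM in DOX-negative cells (log2 fold change 0.77, SE 0.03, edgeR adjusted p = 1.77e-12). EPAS1, which encodes HIF-2 alpha, rose by 0.52, the glucose transporter SLC2A1 by 0.99 and NDRG1 by 1.01 on the log2 scale. ADM, a peptide hormone gene, rose 4.63-fold, at 22.4 ± 0.624 CPM in DOX-positive and 4.85 ± 0.314 CPM in DOX-negative cells. EGLN3, a hypoxia-induced prolyl hydroxylase named after its values were seen, fell by 0.87 on the log2 scale, and CA9 had too few reads to be tested. Their part in the change of NT5E was not tested.

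**Figure D4:**
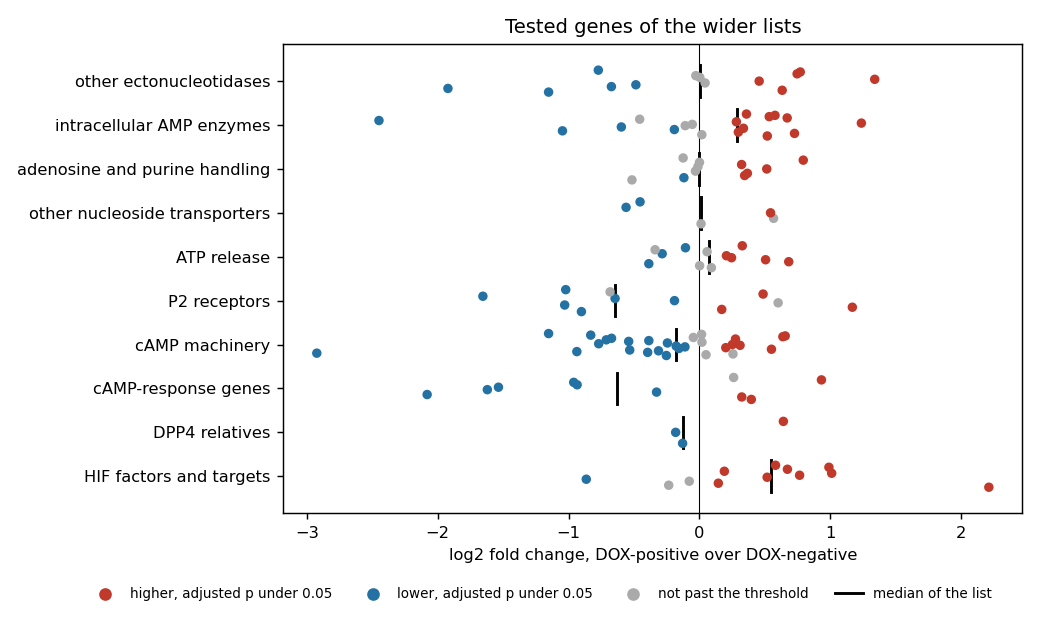
Log2 fold change of the 124 tested genes of the 10 wider lists, DOX-positive over DOX-negative, 1 point per gene; red passed as higher, blue as lower and grey did not pass, and black bars are list medians. The medians lie at -0.65 for P2 receptors and -0.63 for cyclic AMP-response genes and at 0.55 for hypoxia-inducible factors and targets.

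The 5 protein-coding genes whose centred log2 CPM over the 6 libraries lay nearest to that of NT5E were LPAR1, MBOAT2, ACAT2, SFR1 and PIP4K2C, among 9390 genes with a mean of at least 10 CPM. Their root mean square difference from NT5E was 0.0113 for LPAR1, a lysophosphatidic acid receptor, and 0.0285 for PIP4K2C, a phosphoinositide kinase subunit, with MBOAT2, ACAT2 and SFR1 between them. LPAR1 was at 141.3 ± 2.99 CPM in DOX-positive and 62.7 ± 2.05 CPM in DOX-negative cells, a log2 fold change of 1.17 beside the 1.17 of NT5E. Over these 6 libraries, which fall into 2 groups, 1517 of the 9390 genes had a Pearson r with NT5E above 0.99, and the 5 highest by r shared 0 genes with the 5 nearest. With so few libraries the likeness is a description of the fold change.

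**Figure D5:**
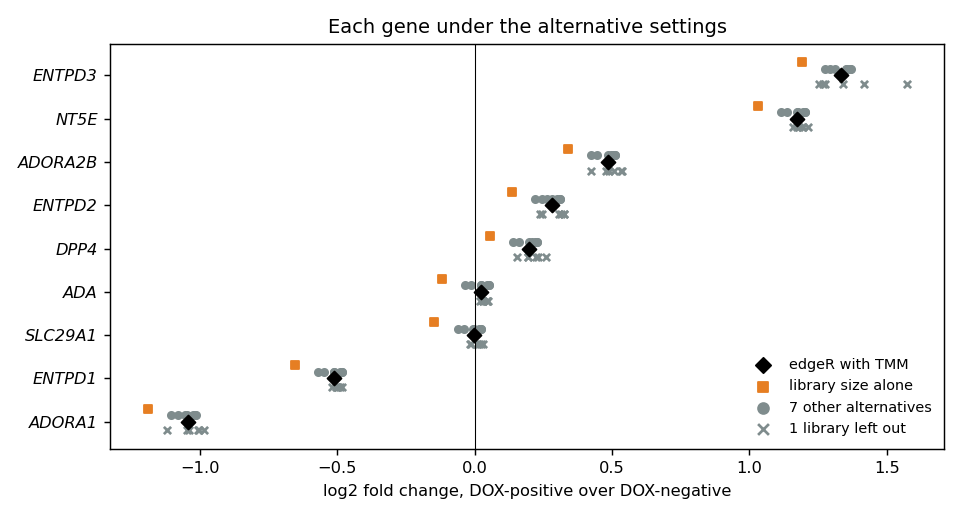
Log2 fold change of the 9 tested genes, DOX-positive over DOX-negative, under edgeR with TMM (diamonds), library size alone (squares), 7 other alternatives (circles) and with 1 library left out (crosses). NT5E lies between 1.03 and 1.22 and ADORA1 between -1.19 and -0.98 throughout, while DPP4 comes as near to 0 as 0.06.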

How the data were processed

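RNA from 6 cultures was sequenced as TruSeq stranded polyadenylated libraries, per the labels' protocols. The deposited table holds whole-number read counts per gene and library, not normalized, with a gene length per gene, per the file headers. Per the submitters' processing notes, GRCh38.p7, DESeq2 1.24.0, STAR 2.7.9a and CASAVA 1.8.2 were used, with no role given. The sources used here name no counting tool, annotation, strand setting or treatment of shared reads, so reads of overlapping genes may be split. In the deposited counts 14 symbols had become dates and 66 rows had none (0.000516% of reads); these were named from the gene ID. Positions came from GENCODE 29 (GRCh38).

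Groups came from the titles. The quasi-likelihood test of edgeR 4.0.16 (R 4.3.3) was fitted to all 24695 genes left by filterByExpr (minimum count 10, minimum total 15), with TMM and group as the only term. P-values were adjusted by Benjamini-Hochberg with a threshold of 0.05. Each standard error is |log2 fold change| over the root of the test's F. TPM used the deposited lengths. Counting floors of 3 reads cover counting error only. Replicates differed by more than sampling noise (chi-square per degree of freedom of at least 6.40 within groups). Other scalings tried were upper-quartile, library size alone and the size factors of DESeq2. Other choices were no filter, 1 CPM or more in 3 libraries, DESeq2 1.42.0 with its Wald test, voom in limma 3.58.1, a replicate block, each library left out, CPM ranks and Pearson likeness.

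The members and lists were chosen with earlier results of these data known. From each list the 3 genes with the highest mean TPM and the 3 with the smallest p were named; others are marked. A gene that this rule names and some markers are not reported here. Figures were drawn with matplotlib 3.10.9.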

Additional observations from a re-analysis of the deposited data

How the results depend on the processing

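Over 14 alternatives the 9 tested adenosine genes kept their side of the threshold in 120 of 126 cases, and the 6 changes were in ENTPD2, DPP4 and SLC29A1. In 10 of the 120 the sign of the log2 fold change turned without a call, in ADA (-0.12 to 0.05 over the alternatives) and SLC29A1 (-0.15 to 0.03), and in 0 cases for a called gene. With library size alone the log2 fold changes were 0.14 for ENTPD2 and 0.056 for DPP4, no longer past the threshold, and -0.15 for SLC29A1, now past it, and DPP4 was 0.14 with upper-quartile scaling. Leaving out 1 library gave 0.24 to 0.33 for ENTPD2, 0.155 to 0.26 for DPP4, -0.02 to 0.03 for SLC29A1 and 1.16 to 1.22 for NT5E. MUC1 stayed past the threshold in every alternative run. The reported genes of the wider lists kept their side of the threshold in 602 of 616 cases, 10 of them with a turned sign in ENTPD4, APRT, AHCYL1 or PRKAR1A, which had not passed, and ENTPD4 (-0.14) turned to lower with library size alone.

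Counts of called genes per list and direction moved by over 1.5 times in 23 of 280 cases. The cause of these changes was not tested. The 1 lower gene of adenosine handling became 0 with DESeq2 size factors, with no filter, with the DESeq2 Wald test, with the replicate block and with any library left out (0 to 0), and 2 with upper-quartile scaling and with at least 1 CPM in 3 libraries. With library size alone the lower counts were 5 in that list, 7 among AMP enzymes and 5 in ATP release. Lower AMP enzymes were 2 with at least 1 CPM in 3 libraries. Lower hypoxia-inducible factor genes were 2 with upper-quartile scaling, library size alone, at least 1 CPM in 3 libraries and limma-voom, and 1 to 2 with a library left out. In the list of other surface enzymes and their relatives, 3 to 4 genes were lower with a library left out.

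By CPM in place of TPM the ranks in DOX-positive cells were 3 for ENTPD1, 4 for ADA, 5 for ADORA2B, 6 for DPP4, 7 for ENTPD2 and 8 for ADORA1, and in DOX-negative cells 3 for ENTPD1, 4 for ADA, 7 for ADORA2B and 8 for ENTPD2. The 5 genes most like NT5E by Pearson correlation shared 0 with the 5 nearest by root mean square difference. Same-numbered replicates did not deviate together, with correlations of -0.16, -0.04 and 0.01 for numbers 1, 2 and 3. Differently numbered replicates gave -0.18 to 0.21. No pairing by number was seen, but with 3 replicates a group this check cannot exclude it. The replicate block gave 1.17 for NT5E and called 13503 genes, against 13957 without it, and changed no call of an adenosine gene. Depth limits ADORA2A and, among those tested, ENTPD3 most.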

Other observations

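DPP4 has relatives with the same kind of peptidase fold, and 3 of 6 were tested. DPP9, a cytosolic peptidase known for restraining inflammasome sensors, was at 282.7 ± 7.14 CPM in DOX-positive and 181.3 ± 3.02 CPM in DOX-negative cells (SD, n = 3 each) and rose 1.56-fold (log2 fold change 0.64, SE 0.03, edgeR adjusted p = 5.12e-11). DPP8, its closest relative, and the lysosomal DPP7 fell by 0.18 and 0.13 on the log2 scale (edgeR adjusted p = 0.000678 and 0.00223). FAP, DPP6 and DPP10 had too few reads to be tested. ADK, which turns adenosine back into AMP inside the cell and was named after its values were seen, read 182.5, 178.6 and 182.5 CPM in DOX-positive and 146.4, 137.0 and 144.6 CPM in DOX-negative cells and rose 1.27-fold (edgeR adjusted p = 2.21e-07).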
